A study of Mus musculus with 18 samples.

Results

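The 9 genes described here, H2-Aa, H2-Ab1, H2-Eb1, Cd74, Ciita, H2-DMa, H2-DMb1, H2-Oa and H2-Ob, make up the core of MHC class II antigen presentation in the mouse. They were chosen by name for their role in the pathway, with earlier results of these data known, from 35441 genes in the deposited liver RNA-seq tables. Tests were run on the 14533 genes whose reads over the 18 livers added up to more than 100, and all 9 members were among them.

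Poly(A) RNA was sequenced from the livers of male mice on a C57BL/6N background, 3 mice in each of 6 groups. WT mice were littermates with an intact Lipa gene, which encodes lysosomal acid lipase, the enzyme that breaks down cholesteryl esters and triglycerides in lysosomes. Untreated Lipa-/- mice (KO) lacked exon 4 of Lipa in every cell, since the deletion had been made by a CMV-Cre in the germline. Treated Lipa-/- mice (KOT) carried the same deletion and received rAAV8, an adeno-associated virus vector that carried HA-tagged human LIPA under the hepatocyte-specific hAAT promoter, by tail vein injection at 10 to 12 weeks of age. WT and KO mice are labelled as untreated. Livers were taken at 12 and 34 weeks post-injection, labelled as 3 and 8 months. Most untreated Lipa-/- mice of the later arm were reported to have been killed early at set endpoints, and the labels give the same time for all mice of that arm. The time points carry different study codes in the labels, so time and study code cannot be told apart. Within the 12-week arm KO mouse 5 carries a study code of its own, and without it the count of members called between KO and WT livers at 12 weeks, given below, was 7 as with it.

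MHC class II molecules are pairs of an alpha and a beta chain that display peptides from endosomes and lysosomes to CD4+ T cells. They are made mainly by dendritic cells, B cells and activated macrophages, and in the liver also by Kupffer cells, the resident macrophages of the sinusoids. The chains are assembled on the invariant chain, which is cut away by proteases in the endosome, and the editor H2-DM then exchanges its last fragment for a peptide while H2-DO restrains H2-DM. Transcription of the alpha and beta chain genes depends largely on the transactivator CIITA, which binds no DNA itself and is recruited by proteins sitting on the X and Y boxes of the promoters.

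Mouse Lipa stood at 62.2 to 133 TPM (transcripts scaled to a common library total, a level per length) in the 6 WT livers, at 7.001 to 14.1 TPM in the 6 KO livers and at 5.37 to 13.2 TPM in the 6 KOT livers. Libraries held 17527824 to 25833059 reads assigned to genes. The factors that edgeR's TMM method used to scale the libraries were 0.587 to 0.759 in the KOT livers at 12 weeks and 0.806 to 1.69 in the other groups, so that the 12-week KOT livers stood apart. Levels below are CPM (reads scaled by library size and TMM factor) unless TPM is named, and 3 reads, taken as the floor of detection, equalled 0.0946 to 0.291 CPM depending on the library. This floor covers counting error only. The summed CPM of 5 hepatocyte markers was 20690 to 103100 over all livers, and no marker of the cell types listed here was at 0 reads in a whole group.

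Of the 9 genes, 7 lie together within 224.3 kb of chromosome 17 of the GRCm39 build, from 34311314 to 34535648. In order along the chromosome these are H2-Oa, H2-DMa, H2-DMb1, H2-Ob, H2-Ab1, H2-Aa and H2-Eb1. Of these, H2-Aa is the gene on the minus strand. The models of H2-Aa and H2-Eb1 overlap on opposite strands at chr17:34504236-34506798, a stretch of 2563 bases of which 118 are exonic in both genes. Strand use in the counting was not stated, so reads from those bases cannot be told apart. Ciita lies at chr16:10297923-10347694 on the plus strand.

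The promoter stretches are shown because the X and Y boxes are the sequences through which CIITA reaches the genes it acts on. RefSeq windows on the GRCm38.p6 build, from 250 bases before to 50 bases after each start, were matched for 6 of the 9 genes, and H2-Ab1, Cd74 and Ciita had no window in that table. Letters searched on both strands were ATTGG (the core of the Y box), CTGATTGG (a longer Y box, which contains ATTGG), CTAGCAAC (the core of the X box) and CNNAGNAAC (a looser X box that can overlap the former). ATTGG was found in 37.4% of all 32851 windows, CTGATTGG in 4.1%, CTAGCAAC in 1.32% and CNNAGNAAC in 16.7%. An X box match followed on the same strand, after 20 to 35 bases, by ATTGG was found in 0.31% of the windows, and this spacing was chosen after the members' windows had been seen. Each line runs 5′ to 3′ along the gene's strand from 110 to 21 bases before the start, and capitals mark the X box match, where one was found, and the Y box match after it.
H2-Oa: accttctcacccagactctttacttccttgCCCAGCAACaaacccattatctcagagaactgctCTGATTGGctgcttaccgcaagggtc
H2-DMb1: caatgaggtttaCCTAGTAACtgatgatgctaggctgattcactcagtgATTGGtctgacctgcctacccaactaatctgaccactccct
H2-Ob: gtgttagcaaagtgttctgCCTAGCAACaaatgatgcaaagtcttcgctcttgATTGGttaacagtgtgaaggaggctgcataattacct
H2-Aa: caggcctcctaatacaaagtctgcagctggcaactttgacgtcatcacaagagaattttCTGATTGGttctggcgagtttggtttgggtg
H2-Eb1: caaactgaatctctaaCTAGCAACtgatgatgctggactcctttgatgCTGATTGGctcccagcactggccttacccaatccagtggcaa

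These stretches lie at chr17:34092269-34092358 for H2-Oa, chr17:34153081-34153170 for H2-DMb1, chr17:34238795-34238884 for H2-Ob, chr17:34287844-34287933 on the minus strand for H2-Aa and chr17:34305757-34305846 for H2-Eb1. The pair of boxes was found in H2-Oa, H2-DMb1, H2-Ob and H2-Eb1, with 28, 28, 25 and 27 bases between the X box match and the ATTGG core of the Y box. H2-Aa held the longer Y box without an X box match by these letters, and the 2 windows of H2-DMa held no such pair. TTCNNNGAA, the interferon gamma activated site, was found in 8.3% of all windows and in none of the 7 windows of these genes. A match describes the letters and is no evidence of binding. Whether the boxes bear on the RNA levels given next was not tested.

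The first comparison asked how untreated Lipa-/- livers differed from WT livers at 12 weeks. A gene was called when its absolute log2 fold change exceeded 1 and its Benjamini-Hochberg adjusted p over all tested genes, from edgeR's quasi-likelihood test, was under 0.05. Of the 9 members 7 rose and none fell, against 20.2% of all tested genes that rose, and the median log2 fold change of the members was 2.24 against 0.0184 over all tested genes. The groups did not overlap for 8 of the 9 members, against 52.7% of all tested genes in either direction. In whole liver RNA, more cells of a type and more RNA per cell cannot be told apart. Each edgeR p value sets a difference of group means against the spread between mice, estimated over all 6 groups.

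H2-Ab1, the beta chain of the I-A molecule, was at 22.3, 54.4 and 16.2 CPM in the 3 WT livers and at 90.4, 184 and 65.6 CPM in the 3 KO livers at 12 weeks. Every KO liver was above every WT liver, although the highest KO liver was far above the other two. H2-Ab1 rose by 1.87 on the log2 scale (SE 0.56, adjusted p = 0.0142, edgeR).

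H2-Aa, the alpha chain that pairs with it, was at 15.2, 38.5 and 11.6 CPM in WT livers and at 103, 177 and 45.3 CPM in KO livers. The same mice were high and low as for H2-Ab1, and the groups did not overlap. The log2 fold change of H2-Aa was 2.32 (SE 0.64, adjusted p = 0.00891, edgeR). H2-Eb1, the beta chain of the I-E molecule, was at 14.4, 43.5 and 13.4 CPM in WT livers and at 101, 182 and 54.1 CPM in KO livers. It too rose, by 2.24 on the log2 scale (SE 0.63, adjusted p = 0.00912, edgeR). I-E needs the alpha chain H2-Ea, which the H2-b haplotype of C57BL/6 mice does not express. H2-Ea was at 0 reads in all but 2 of the 18 livers, with at most 0.0546 CPM, which is below the floor of 3 reads.

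Cd74, the invariant chain, had the highest level per length of the 9 genes in each group except the KOT livers at 12 weeks, where H2-Aa, H2-Ab1 and H2-Eb1 had higher means. In WT livers at 12 weeks Cd74 was at 33.6, 72.2 and 34.0 CPM. In KO livers it was at 363, 524 and 158 CPM, each above the highest WT liver. Its log2 fold change, 2.90 (SE 0.63, adjusted p = 0.00161, edgeR), was the largest of the 9 members in this comparison.

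H2-DMa and H2-DMb1 form H2-DM, the peptide editor. H2-DMa was at 3.00, 4.496 and 2.41 CPM in WT livers and at 18.2, 21.5 and 13.8 CPM in KO livers at 12 weeks. H2-DMb1 was at 2.20, 4.54 and 2.09 CPM in WT livers and at 17.52, 25.9 and 19.4 CPM in KO livers. Both genes had KO livers that lay closer together than for the classical chains, with the lowest KO liver well above the highest WT liver. H2-DMa rose by 2.43 (SE 0.42, adjusted p = 0.000241, edgeR). For H2-DMb1 the log2 fold change was 2.82 (SE 0.44, adjusted p = 8.5e-05, edgeR), the smallest adjusted p among the members. H2-DMb1 has a near-identical neighbour, H2-DMb2, and reads of the pair may have been split between them.

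The partners of H2-DM, H2-Oa and H2-Ob, form H2-DO, which is known chiefly from B cells and thymic epithelium. H2-Oa had few reads, 4, 3 and 6 in the WT livers and 8, 22 and 20 in the KO livers at 12 weeks. These equalled 0.214, 0.143 and 0.314 CPM in WT livers and 0.284, 0.854 and 0.808 CPM in KO livers, and the groups overlapped. The log2 fold change of H2-Oa, 1.51 (SE 0.99), did not pass the test (adjusted p = 0.243, edgeR). H2-Ob was at 0.750, 0.574 and 0.471 CPM in WT livers and at 0.887, 0.776 and 1.21 CPM in KO livers. Its KO livers lay just above its WT livers, with a log2 fold change of 0.67 (SE 0.53) that did not pass the test (adjusted p = 0.336, edgeR).

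Ciita, the transactivator, was at 0.375, 0.861 and 0.890 CPM in WT livers and at 2.66, 3.92 and 1.54 CPM in KO livers at 12 weeks. The groups did not overlap, and Ciita rose by 1.92 (SE 0.50, adjusted p = 0.00572, edgeR). Reads for Ciita ranged from 7 to 101 over the 18 livers, so its counting error was larger than that of the chains.

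The count of 7 did not rest on 1 liver, but single calls did. Without KO mouse 8 the count was 5, since H2-Ab1 (log2 fold change 1.33) and H2-Eb1 (1.71) no longer passed, and without WT mouse 1 or 3 it was 6, since H2-Ab1 did not pass (1.68 and 1.56). Cd74, H2-DMa, H2-DMb1, Ciita and H2-Aa were called in all 18 fits with 1 mouse left out.

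**Figure D1:**
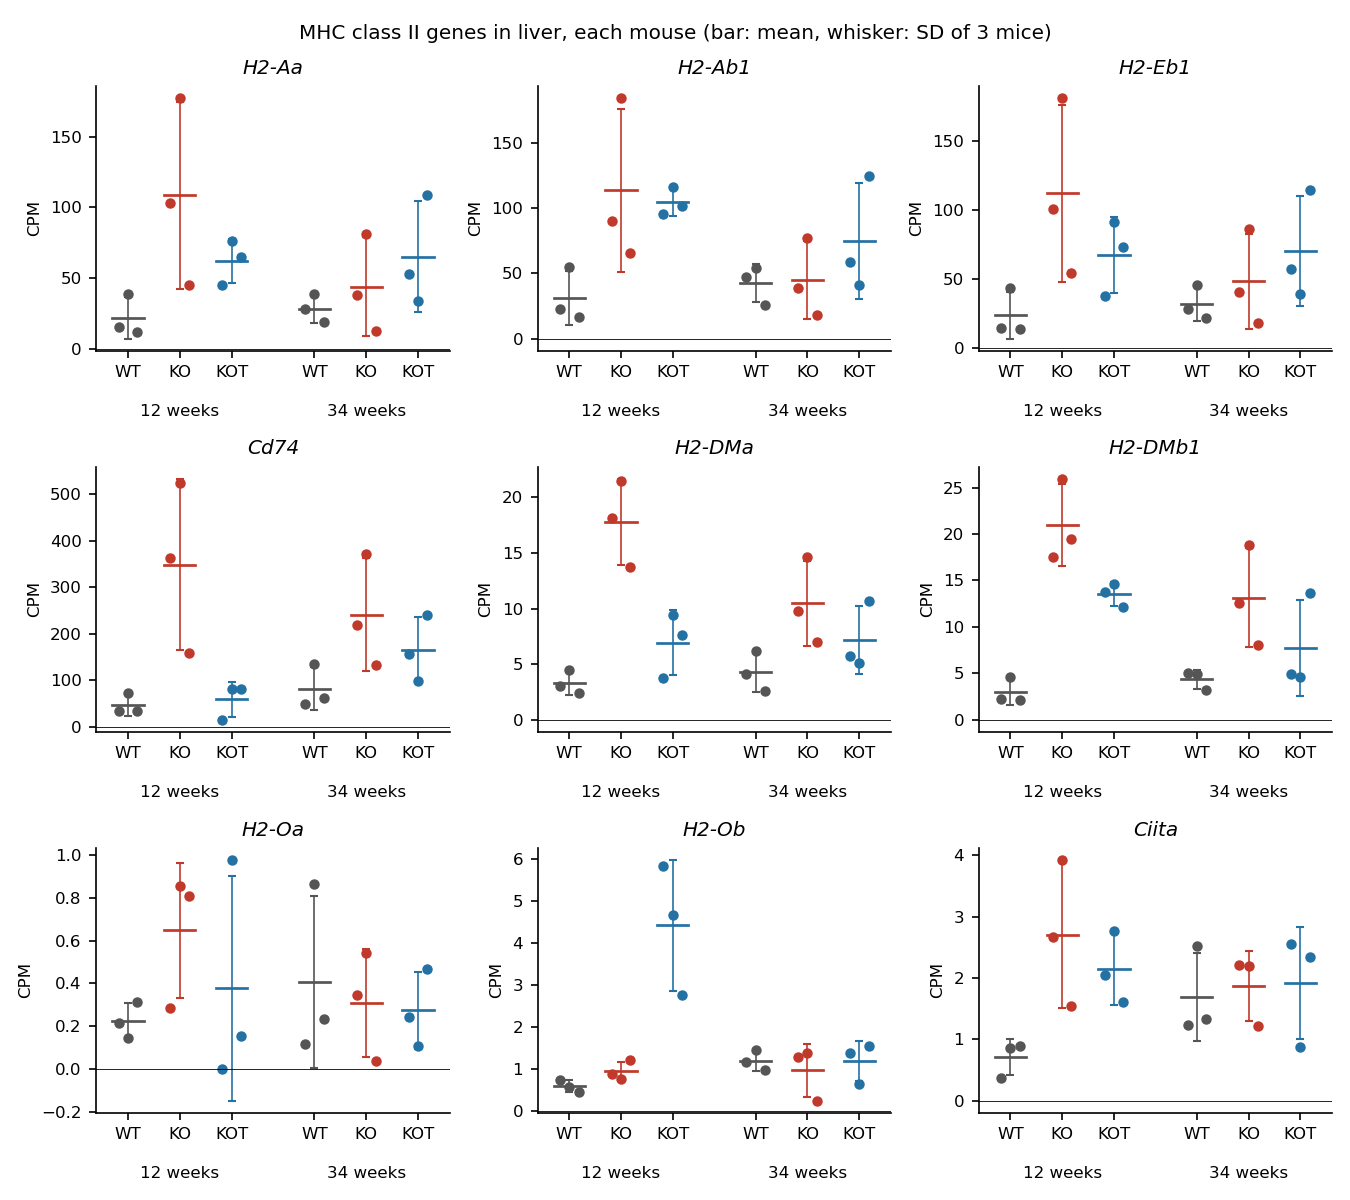
Level of each MHC class II gene in CPM (y axis, linear, scaled per gene) in each mouse of the 6 groups (x axis; grey WT, red KO, blue KOT); bars give the mean and whiskers the SD of 3 mice. For H2-Aa, H2-Ab1, H2-Eb1, Cd74, H2-DMa, H2-DMb1 and Ciita the 12-week KO mice lie above the WT mice, and for H2-Ob the 12-week KOT mice, at 2.76 to 5.83 CPM, lie above all other mice.

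At 34 weeks the untreated Lipa-/- livers differed from WT livers in fewer members. Of the 9 members, 3 rose and none fell, against 20.5% of all tested genes that rose. The groups did not overlap for 2 members, H2-DMa and H2-DMb1, against 60.3% of all tested genes. The members' median log2 fold change was 0.61, and that of all tested genes was -0.0267.

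The members that rose at 34 weeks were Cd74, H2-DMa and H2-DMb1, the invariant chain and the peptide editor. Cd74 was at 50.5, 135 and 61.5 CPM in WT livers and at 219.5, 372 and 132 CPM in KO livers. The lowest KO liver was just below the highest WT liver, so the groups overlapped by 1 liver on each side. Cd74 had a log2 fold change of 1.55 (SE 0.60, adjusted p = 0.0428, edgeR).

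H2-DMa was at 4.07, 6.18 and 2.57 CPM in WT livers and at 9.77, 14.6 and 7.02 CPM in KO livers at 34 weeks. It rose by 1.29 (SE 0.41, adjusted p = 0.0151, edgeR). H2-DMb1 was at 5.01, 4.88 and 3.15 CPM in WT livers and at 12.6, 18.8 and 8.08 CPM in KO livers. It rose by 1.60 (SE 0.42, adjusted p = 0.00464, edgeR), and here too every KO liver was above every WT liver. The count of 3 dropped to 1 without KO mouse 5 or WT mouse 3, when Cd74 (1.10 and 1.38) and H2-DMa (0.98 and 1.02) no longer passed, and to 2 without KO mouse 4 or WT mouse 1, when Cd74 did not (1.65 and 1.299). H2-DMb1 was called each time.

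The classical chains did not pass the test at 34 weeks. H2-Ab1 was at 47.5, 53.8 and 25.9 CPM in WT livers and at 38.8, 76.9 and 18.04 CPM in KO livers, with a log2 fold change of 0.07 (SE 0.55, adjusted p = 0.927, edgeR). Its KO livers included both the highest and the lowest of the 6 livers. H2-Aa was at 28.1, 38.6 and 18.6 CPM in WT livers and at 37.7, 81.4 and 12.9 CPM in KO livers (log2 fold change 0.63, SE 0.62, adjusted p = 0.426, edgeR). H2-Eb1 was at 28.0, 45.6 and 21.5 CPM in WT livers and at 40.6, 86.2 and 18.003 CPM in KO livers (log2 fold change 0.61, SE 0.60, adjusted p = 0.430, edgeR). For each chain KO mouse 5 was the highest and KO mouse 6 the lowest of the 6 livers. Without KO mouse 5 all 3 log2 fold changes fell below 0, to -0.16 for H2-Aa, -0.57 for H2-Ab1 and -0.11 for H2-Eb1.

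Ciita was at 1.24, 2.52 and 1.32 CPM in WT livers and at 2.21, 2.20 and 1.21 CPM in KO livers at 34 weeks, with a log2 fold change of 0.14 (SE 0.47, adjusted p = 0.834, edgeR). H2-Oa was at 0.118, 0.867 and 0.233 CPM in WT livers and at 0.347, 0.541 and 0.0367 CPM in KO livers. The groups overlapped widely for both genes. H2-Ob was at 1.18, 1.46 and 0.973 CPM in WT livers and at 1.29, 1.39 and 0.257 CPM in KO livers, again with overlap. Neither H2-Oa nor H2-Ob passed the test.

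Whether the difference between KO and WT livers itself changed from 12 to 34 weeks was tested as an interaction. It was called for none of the 9 members by edgeR and for none by DESeq2, with 2 members at an unadjusted p under 0.05, against 0.0619% of all tested genes called in either direction. The interaction values ran from -1.95 to -0.97 on the log2 scale, below 0 for all 9 members, and the smallest adjusted p was 0.386 (edgeR). The smaller count of calls at 34 weeks is therefore not shown to be a change of the difference with time. Within WT livers, none of the 9 members was called between 12 and 34 weeks by edgeR or DESeq2, with 1 at an unadjusted p under 0.05, against 0.323% of all tested genes called. Within KO livers, none was called by either tool, with 1 at an unadjusted p under 0.05, against 0.495% of all tested genes.

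The second comparison asked how treated Lipa-/- livers differed from WT livers. At 12 weeks 4 of the 9 members were higher in KOT than in WT livers and none was lower, against 13.6% of all tested genes that were higher. DESeq2 called 7 members, the count of members at an unadjusted p under 0.05 in edgeR, so the count rests on the test used. The groups did not overlap for 5 members, H2-Aa, H2-Ab1, Ciita, H2-DMb1 and H2-Ob, against 52.5% of all tested genes. The members' median log2 fold change was 1.51 and that of all tested genes was 0.0585.

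H2-Ob differed most. It was at 5.83, 4.67 and 2.76 CPM in the KOT livers at 12 weeks, from 60, 86 and 36 reads, against 0.471 to 0.750 CPM in the WT livers, from 9 to 14 reads. In CPM the lowest KOT liver, mouse 12, was above every liver of the other 5 groups. In TPM that liver, at 1.34, was below WT mouse 2 (1.53) and KO mice 4 and 5 (1.45 and 1.37) of 34 weeks. H2-Ob rose by 2.87 on the log2 scale (SE 0.53, adjusted p = 0.00278, edgeR). On the TPM scale its mean was 2.00 ± 0.58 in KOT livers against 0.414 ± 0.098 in WT livers (SD, n = 3 each).

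H2-DMb1 was at 13.8, 14.7 and 12.1 CPM in KOT livers at 12 weeks, a narrow range above the WT livers (log2 fold change 2.19, SE 0.43, adjusted p = 0.00371, edgeR). H2-Ab1 was at 95.0, 116 and 102 CPM in KOT livers, also above every WT liver (log2 fold change 1.75, SE 0.56, adjusted p = 0.0245, edgeR). Ciita was at 2.04, 2.77 and 1.61 CPM in KOT livers (log2 fold change 1.59, SE 0.51, adjusted p = 0.0239, edgeR). All 3 genes had groups that did not overlap.

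H2-Aa was at 45.0, 76.1 and 64.9 CPM in KOT livers at 12 weeks, above the WT livers, but did not pass the test (log2 fold change 1.51, SE 0.63, adjusted p = 0.0687, edgeR). H2-Eb1 was at 37.6, 91.3 and 73.4 CPM (log2 fold change 1.505, SE 0.61, adjusted p = 0.0632, edgeR), and H2-DMa at 3.79, 9.45 and 7.59 CPM (log2 fold change 1.08, SE 0.42, adjusted p = 0.0509, edgeR). For H2-Eb1 and H2-DMa the lowest KOT liver, mouse 10, lay within the WT range. Cd74 was at 15.9, 80.8 and 81.2 CPM in KOT livers, so that mouse 10 was below every WT liver and the other two were above (log2 fold change 0.35, SE 0.59, adjusted p = 0.660, edgeR). H2-Oa was at 0, 0.978 and 0.153 CPM, from 0, 18 and 2 reads, and overlapped the WT livers.

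The count of 4 varied with the mice. It was 2 without KOT mouse 11 or WT mouse 1 or 3, and 3 without KOT mouse 10, since H2-Ab1 and Ciita did not pass in these fits and H2-DMa passed without mouse 10. It was 7 without WT mouse 2 and 7 without KO mouse 6 of 34 weeks. H2-Ob and H2-DMb1 were called in all 18 fits with 1 mouse left out.

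Direct comparison of KOT with KO livers at 12 weeks shares the KOT libraries with the comparison above. Of the 9 members 1 was higher, against 16.2% of all tested genes, and 2 were lower, against 25.3% of all tested genes. H2-Ob was the higher member (log2 fold change 2.20, SE 0.51, adjusted p = 0.00184, edgeR), with every KOT liver above every KO liver. Cd74 was lower (log2 fold change -2.55, SE 0.62, adjusted p = 0.00279, edgeR), its highest KOT liver being at 81.2 CPM and its lowest KO liver at 158 CPM. H2-DMa was lower as well (log2 fold change -1.35, SE 0.41, adjusted p = 0.0106, edgeR). The other members were not called and ran from -0.81 (H2-Aa) to -0.12 (H2-Ab1), all below 0. The median over all 9 members was -0.63 against -0.1875 over all tested genes.

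By 34 weeks none of the 9 members was called between KOT and WT livers by edgeR or DESeq2, and none reached an unadjusted p under 0.05. Over all tested genes, 0.22% were called in either direction. No member had groups that did not overlap, against 8.89% of all tested genes. H2-Ab1 was at 58.8, 40.8 and 125 CPM in the KOT livers, H2-Aa at 52.5, 33.9 and 109 CPM, and H2-Eb1 at 57.3, 38.8 and 115 CPM. Mouse 12 was the highest for each chain and mouse 11 the lowest. The log2 fold changes ran from -0.56 to 1.20 with a median of 0.82, against 0.00239 over all tested genes, and the smallest adjusted p was 0.892 (edgeR).

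Cd74 was at 156, 98.5 and 239 CPM in the KOT livers at 34 weeks, and H2-DMb1 at 4.92, 4.59 and 13.7 CPM. H2-DMa was at 5.73, 5.08 and 10.7 CPM. For these 3 genes the KOT livers overlapped both the WT and the KO livers. H2-Ob was at 1.38, 0.655 and 1.56 CPM, Ciita at 2.56, 0.874 and 2.33 CPM, and H2-Oa at 0.244, 0.109 and 0.467 CPM. Between KOT and KO livers at 34 weeks no member was called by edgeR or DESeq2 and none reached an unadjusted p under 0.05, against 31.5% of all tested genes called in either direction. Those log2 fold changes ran from -0.76 to 0.75 with a median of 0.05, and the smallest adjusted p was 0.147 (edgeR).

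**Figure D2:**
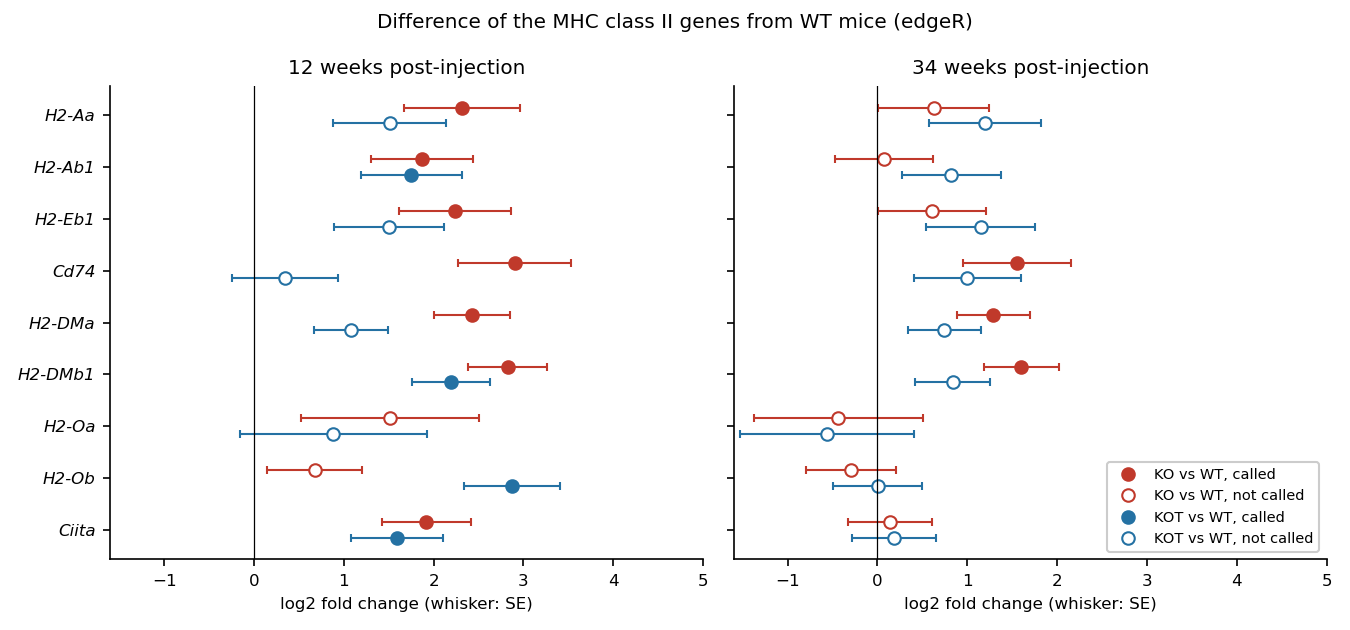
log2 fold change (x axis; whisker, SE) of each MHC class II gene (y axis) from WT mice at 12 weeks (left) and 34 weeks (right), for KO mice (red) and KOT mice (blue), 3 mice a group; filled points were called. At 12 weeks 7 KO and 4 KOT points are filled, and at 34 weeks 3 KO points and no KOT point.

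Between 12 and 34 weeks the KOT livers differed in 1 member, H2-Ob, which fell from 2.76 to 5.83 CPM at 12 weeks to 0.655 to 1.56 CPM at 34 weeks (log2 fold change -1.86, SE 0.50, adjusted p = 0.00719, edgeR). Over all tested genes 14.5% were lower at 34 weeks. DESeq2 called 2 members. The interaction of KOT against WT with time was lower than 0 and called for H2-Ob (-2.87, SE 0.72, adjusted p = 0.0249, edgeR), against 9.83% of all tested genes, or 18.4% in either direction. The number of all genes called, 2675, was 1 without KOT mouse 9 of 34 weeks, 3 without WT mouse 3 of 12 weeks, 65 without WT mouse 1 of 12 weeks and 5 when the fit held the KOT and WT livers alone. The call of H2-Ob was lost when KOT mouse 10 of 12 weeks, KOT mouse 9 of 34 weeks, WT mouse 1 or 3 of 12 weeks or WT mouse 1 of 34 weeks was left out, with values of -3.06 to -2.55. The interaction of KOT against KO with time was called for no member by edgeR and for 1 by DESeq2, with 2 at an unadjusted p under 0.05, against 3.28% of all tested genes.

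Levels per length put the 9 genes in an order that differed between groups. In WT livers at 12 weeks the mean TPM was 37.5 ± 13.9 for Cd74, 26.2 ± 14.4 for H2-Ab1, 23.0 ± 16.4 for H2-Eb1 and 19.9 ± 11.3 for H2-Aa (SD, n = 3). These SDs are spreads between mice, and the levels of these genes were not tested against each other. Within each of these livers H2-Aa stood below H2-Ab1, at a ratio of 0.726 to 0.772. Next came H2-DMa at 3.27 ± 0.55 and H2-DMb1 at 2.27 ± 1.07. H2-Ob at 0.414 ± 0.098, H2-Oa at 0.225 ± 0.104 and Ciita at 0.110 ± 0.052 were the lowest.

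In KO livers at 12 weeks the mean TPM of Cd74 was 397 ± 200, above H2-Eb1 at 148 ± 83.4, H2-Aa at 144 ± 84.6 and H2-Ab1 at 139.6 ± 74.2 (SD, n = 3). H2-DMa at 24.0 ± 4.72 and H2-DMb1 at 22.4 ± 3.402 followed, then H2-Oa at 0.875 ± 0.442, H2-Ob at 0.803 ± 0.360 and Ciita at 0.603 ± 0.225. In KOT livers at 12 weeks H2-Ab1 led at 60.3 ± 17.3, with H2-Eb1 at 43.4 ± 23.4, H2-Aa at 38.9 ± 16.6 and Cd74 at 33.3 ± 23.3. H2-DMb1 was at 7.16 ± 2.07 and H2-DMa at 4.58 ± 2.55 in these KOT livers. Below them H2-Ob at 2.00 ± 0.58 stood above H2-Oa at 0.278 ± 0.403 and Ciita at 0.214 ± 0.083.

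At 34 weeks the WT means were 85.5 ± 61.2 TPM for Cd74, 43.9 ± 18.8 for H2-Ab1, 37.5 ± 20.7 for H2-Eb1 and 32.3 ± 16.0 for H2-Aa (SD, n = 3). The KO means were 376 ± 170 for Cd74 and 84.1 ± 54.4, 78.0 ± 55.8 and 74.6 ± 45.1 for H2-Eb1, H2-Aa and H2-Ab1. The KOT means were 175.7 ± 78.5 for Cd74 and 85.8 ± 49.2, 85.4 ± 46.6 and 79.3 ± 47.2 for H2-Ab1, H2-Eb1 and H2-Aa. The SDs of the classical chains overlapped in all 3 groups, but they are spreads between mice, and the chains' levels were not tested against each other. The ratio of H2-Aa to H2-Ab1 within a liver was 0.634 to 0.777 in WT and 0.873 to 0.934 in KOT livers. In KO livers this ratio was 0.747 to 1.12. H2-DMa and H2-DMb1 were at 5.32 ± 2.55 and 3.70 ± 1.06 in WT, 19.2 ± 6.63 and 19.1 ± 7.42 in KO and 9.27 ± 3.58 and 7.35 ± 4.58 in KOT livers. H2-Ob was at 1.01 ± 0.46, 0.993 ± 0.727 and 0.764 ± 0.465 TPM in WT, KO and KOT livers, and H2-Oa at 0.523 ± 0.563, 0.580 ± 0.455 and 0.346 ± 0.231.

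Ciita was at 0.324 ± 0.205 TPM in WT, 0.777 ± 0.437 in KO and 0.429 ± 0.192 in KOT livers at 34 weeks (SD, n = 3). TPM, unlike CPM, is divided by the mean transcript length that was deposited with the counts. That length was 5387 to 5790 bases for Ciita in the WT livers at 34 weeks and 3358 to 4880 bases in the KO livers, and 5411 to 5777 against 4876 to 5399 bases at 12 weeks. These lengths are estimates over the gene's transcripts, weighted by their abundance, and rest on few reads.

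Ratios of 2 genes within a liver do not depend on the scaling of the library. The log2 ratio of TPM (pseudocount 0.01) was compared between arms of 6 mice by an exact two-sided permutation test within time points, with 400 relabelings and a smallest possible p of 0.005, and the Benjamini-Hochberg method was applied over 24 tests of 8 ratios. Of these 24 tests 11 passed and 13 did not. Within a time point, 3 mice against 3 allow no exact permutation p under 0.1.

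Cd74 relative to H2-Ab1, the invariant chain against a classical chain, was higher in KO than in WT livers by 1.278 on the log2 scale (exact permutation p = 0.005, adjusted p = 0.024), and by 0.90 at 12 weeks and 1.65 at 34 weeks. As plain ratios, WT livers lay between 1.25 and 1.94 at 12 weeks and KO livers between 2.27 and 3.69. At 34 weeks the KO livers lay between 4.44 and 6.78, above every WT liver. In KOT livers the ratio was lower than in KO livers (log2 difference -2.05, exact permutation p = 0.005, adjusted p = 0.024), at 0.156 to 0.730 at 12 weeks and 1.80 to 2.41 at 34 weeks. KOT and WT livers did not pass the test for this ratio over both times (log2 difference -0.77, adjusted p = 0.268, exact permutation). Their difference was -1.84 at 12 weeks, when every KOT liver was below every WT liver, and 0.30 at 34 weeks. The KO to WT and the KOT to KO differences passed in all 14 other settings, which were CPM in place of TPM, a pseudocount of 0.1 and each of the 12 mice left out.

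H2-Ob relative to H2-DMb1, a chain of the inhibitor against a chain of the editor, was lower in KO than in WT livers (log2 difference -2.66, exact permutation p = 0.005, adjusted p = 0.024). The difference was -2.54 at 12 weeks and -2.77 at 34 weeks. WT livers held 0.128 to 0.316 H2-Ob per H2-DMb1 at 12 weeks, and KO livers 0.0152 to 0.0514. KOT livers were above KO livers by 2.22 (exact permutation p = 0.005, adjusted p = 0.024), at 0.200 to 0.458 at 12 weeks and 0.0726 to 0.148 at 34 weeks. At both times every KO liver was below every WT and every KOT liver. KOT and WT livers did not pass the test for H2-Ob to H2-DMb1 over both times (log2 difference -0.43, adjusted p = 0.417, exact permutation). Their difference was 0.52 at 12 weeks and -1.38 at 34 weeks. WT livers held 0.224 to 0.313 at 34 weeks, so that in TPM every KOT liver was then below every WT liver. In CPM the groups overlapped. KOT mouse 9 had 1.38 CPM of H2-Ob and 4.92 of H2-DMb1, and WT mouse 1 had 1.18 and 5.01. The deposited length of H2-Ob was 1124 to 1387 bases in these WT livers and 1401 to 2304 bases in the KOT livers. For H2-Ob too, these lengths rest on few reads. The KOT to KO difference passed in 13 of 14 settings, with an adjusted p of 0.06 (exact permutation) without KOT mouse 12 of 34 weeks.

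H2-Eb1 relative to H2-Ab1 was higher in KO than in WT livers by 0.37 (exact permutation p = 0.02, adjusted p = 0.0436) and lower in KOT than in KO livers (log2 difference -0.39, exact permutation p = 0.02, adjusted p = 0.0436). These passed in 5 and 4 of 14 settings. Differences in the ratios of H2-Aa to H2-Ab1, of Ciita to H2-Ab1 and of H2-Oa to H2-DMa did not pass in any of the 3 comparisons.

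**Figure D3:**
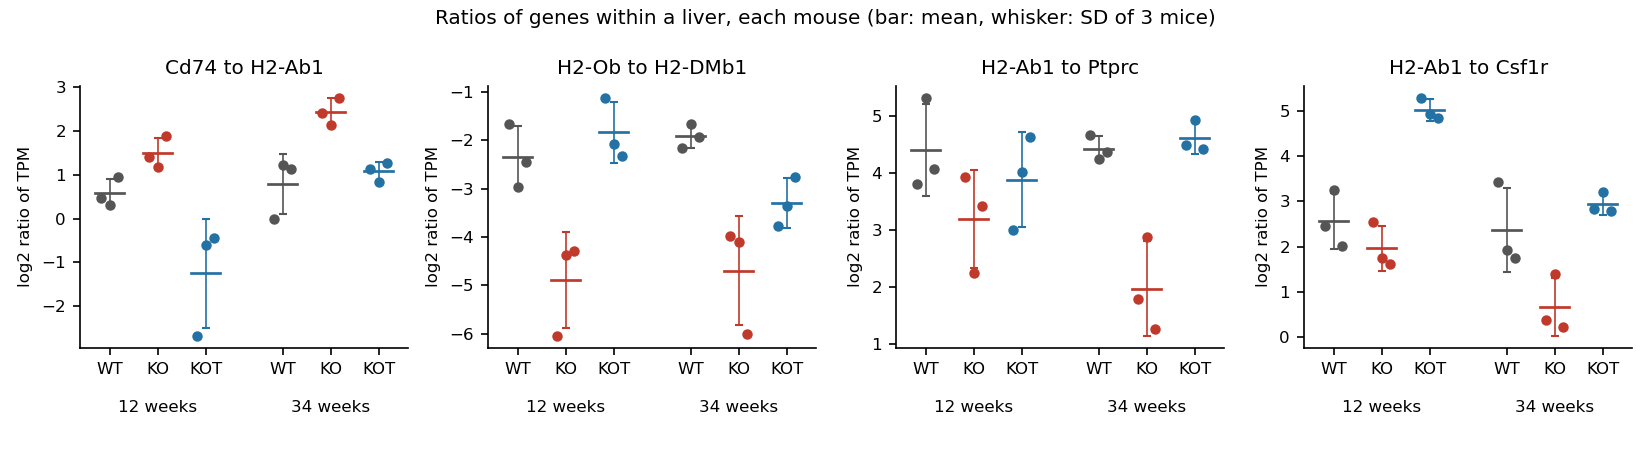
log2 ratio of the TPM of 2 genes within each liver (y axis) in the 6 groups (x axis; grey WT, red KO, blue KOT), with the mean as a bar and the SD of 3 mice as a whisker. Cd74 to H2-Ab1 is highest and H2-Ob to H2-DMb1 lowest in KO mice at both times. H2-Ab1 to Csf1r is highest in the 12-week KOT mice, whose mean Csf1r was 1.89 TPM against 4.04 in 12-week WT mice.

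H2-Ab1 was also set against 2 genes of the cells that carry it. Ptprc, which encodes CD45 on all leukocytes, rose in KO livers by 3.22 at 12 weeks (SE 0.41, adjusted p = 1.1e-05, edgeR) and by 2.33 at 34 weeks (SE 0.39, adjusted p = 0.000118, edgeR). H2-Ab1 relative to Ptprc was lower in KO than in WT livers (log2 difference -1.83, exact permutation p = 0.01, adjusted p = 0.04), with 4.75 to 15.2 H2-Ab1 per Ptprc in KO livers at 12 weeks against 14.1 to 39.9 in WT livers. The KO livers of 34 weeks held 2.40 to 7.37 and the WT livers 19.0 to 25.5. The ratio was higher in KOT than in KO livers by 1.66 (exact permutation p = 0.02, adjusted p = 0.0436). These passed in 11 and 4 of the 14 settings.

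Csf1r, the receptor for the macrophage growth factor CSF1, rose in KO livers by 2.49 at 12 weeks (SE 0.39, adjusted p = 0.0001, edgeR) and by 1.54 at 34 weeks (SE 0.38, adjusted p = 0.00307, edgeR). At 12 weeks H2-Ab1 relative to Csf1r was 4.05 to 9.48 in WT livers and 3.06 to 5.79 in KO livers. It was 28.7 to 39.0 in KOT livers, all 3 far above the others. Csf1r itself had a mean of 1.89 TPM in these KOT livers, against 4.04 in WT livers. Not all macrophage markers were lower in KOT livers. Mean TPM in KOT against WT livers was 6.87 against 2.39 for Adgre1, 85.8 against 42.1 for C1qa and 2.08 against 2.15 for Mertk. Ratios of H2-Ab1 to these markers were not tested. At 34 weeks the ratio of H2-Ab1 to Csf1r was 3.37 to 10.8 in WT, 1.17 to 2.65 in KO and 6.87 to 9.24 in KOT livers. KOT exceeded KO livers by 2.66 (exact permutation p = 0.005, adjusted p = 0.024), which passed in all 14 settings. The differences of KO from WT (-1.16, adjusted p = 0.0436, exact permutation) and of KOT from WT (1.51, adjusted p = 0.0436, exact permutation) passed in 4 and 6 of the 14 settings.

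Marker genes of the cell types that can carry class II were followed beside the members, and not all moved with them. Their part in the results was not tested. Beside the marker counts below, 20.2% of all tested genes rose in KO livers at 12 weeks and 20.5% at 34 weeks. In KOT livers 13.6% of all tested genes rose from WT at 12 weeks, and 0.22% were called in either direction at 34 weeks. All 8 macrophage markers rose in KO livers at both times, with summed levels of 1088 to 1761 CPM at 12 weeks against 91.0 to 199 CPM in WT livers. The 34-week sums were 745 to 2051 CPM in KO and 151 to 267 CPM in WT livers. In KOT livers 4 of 8 rose from WT at 12 weeks, with sums of 336 to 346 CPM, and 0 of 8 at 34 weeks, with sums of 197 to 387 CPM. Of the 4 monocyte markers 4 rose in KO livers at each time, 2 in KOT livers at 12 weeks and 0 at 34 weeks.

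Kupffer cell markers, 5 in number, did not move as one. At 12 weeks 2 rose and 1 fell in KO livers, and at 34 weeks 2 fell. Their summed level was 66.1 to 375 CPM in KO livers at 12 weeks against 86.2 to 205 CPM in WT livers. In the KOT livers it was 340 to 504 CPM at 12 weeks, with 1 marker that rose. Among the 6 markers of conventional dendritic cells, 2 rose in KO livers at 12 weeks, 1 at 34 weeks and 3 in KOT livers at 12 weeks, with sums of 24.8 to 67.7 CPM in KO, 7.05 to 13.9 CPM in KOT and 3.82 to 5.21 CPM in WT livers at 12 weeks. Most of that sum in KO livers was Itgax, the CD11c gene, which macrophages also make, at 19.1 to 61.05 CPM in KO, 1.61 to 4.08 CPM in KOT and 0.0957 to 0.268 CPM in WT livers. Zbtb46, a transcription factor of conventional dendritic cells, had a mean of 2.20 CPM in KO and 2.83 CPM in WT livers. Over all 6 genes the median log2 fold change from WT livers at 12 weeks was 1.33 in KO and 2.22 in KOT livers. At 34 weeks this median was 0.31 in KO and 0.69 in KOT livers.

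B cell markers were low throughout. Their 6 genes summed to 1.73 to 3.80 CPM in WT, 3.30 to 4.46 CPM in KO and 5.73 to 13.5 CPM in KOT livers at 12 weeks. Of these 6, 1 rose in the KO livers at 12 weeks and 2 rose in the KOT livers against WT livers. Between KOT and KO livers at 12 weeks 2 of the 6 were higher and 0 lower, against 16.2% of all tested genes that were higher, and Ms4a1, which encodes the B cell surface protein CD20, was one of them (log2 fold change 2.51, adjusted p = 0.00891, edgeR). Pax5, the B cell transcription factor, had a mean of 0.0766 CPM in KOT and 0.151 CPM in KO livers, with 0 reads in 2 of the 3 KOT livers. The complement receptor gene Cr2 had means of 0.271 CPM in KOT and 0.391 CPM in KO livers. The part of B cells in the H2-Ob level was not tested. At 34 weeks the B cell sums were 3.77 to 10.0 CPM in WT, 2.72 to 8.61 CPM in KO and 5.30 to 5.83 CPM in KOT livers, and no B cell marker was called between KOT and WT livers. T cell markers rose in 4 of 6 cases in KO livers at each time and in KOT livers at 12 weeks, and in 1 of 6 in KOT livers at 34 weeks.

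The pathway around these genes was followed in a list of 33 related genes, of which 30 were tested; H2-Ea, Ifng and Pdcd1lg2 had too few reads. In KO livers 15 rose and 1 fell at 12 weeks, against 20.2% of all tested genes that rose. At 34 weeks 13 rose and 3 fell in KO livers, against 20.5% of all tested genes that rose. In KOT livers 12 rose and 1 fell at 12 weeks, against 13.6% of all tested genes that rose. None was called in KOT livers at 34 weeks, against 0.22% of all tested genes in either direction. The list's median log2 fold changes in these comparisons were 1.31, 0.83, 0.83 and 0.25. Between KOT and KO livers at 12 weeks 1 of the 30 was higher and 10 were lower, against 25.3% of all tested genes that were lower. At 34 weeks 1 was higher and 11 were lower, against 18.6% of all tested genes that were lower.

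Enzymes that prepare the peptide and clear the invariant chain stood out by size. Ctss, the cathepsin that makes the final cuts in the invariant chain of most presenting cells, was at 12.7 to 28.0 CPM in WT livers and at 931 to 1411 CPM in KO livers at 12 weeks. It was at 45.4 to 73.1 CPM in KOT livers. Ctss rose in KO livers by 5.84 at 12 weeks (SE 0.42, adjusted p = 5.1e-08, edgeR) and by 5.09 at 34 weeks (SE 0.41, adjusted p = 1.3e-07, edgeR), and in KOT livers by 1.73 at 12 weeks (SE 0.35, adjusted p = 0.00412, edgeR). Lgmn, the asparagine endopeptidase of lysosomes, rose by 3.29 and 2.89 in KO livers at 12 and 34 weeks and by 1.43 in KOT livers at 12 weeks. Ifi30, the lysosomal thiol reductase that unfolds antigens, rose by 3.46 and 2.34 in KO livers, while its value of 0.62 in KOT livers at 12 weeks did not pass the test. Ctsl, at 0.74 and 0.77 in KO livers, stayed under the threshold on size.

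Of the 7 transcription factor subunits that sit on the X and Y boxes, Nfya, a subunit of NF-Y, rose by 1.20 and 1.52 in KO livers at 12 and 34 weeks. Another NF-Y subunit, Nfyb, fell by 1.02 in KO livers at 34 weeks, and the remaining subunit, Nfyc, fell by 1.20 in KOT livers at 12 weeks. Rfx5, Rfxank, Rfxap and Creb1 were called in neither KO nor KOT livers against WT. In the interferon gamma group, the receptor genes Ifngr1 and Ifngr2 rose in KO livers at 12 weeks (2.44 and 2.01) and 34 weeks (2.21 and 1.52) and in KOT livers at 12 weeks (1.12 and 1.08). Irf1, a target of that signal, was called in KOT livers at 12 weeks alone among these comparisons (1.18). Socs1, its feedback inhibitor, rose by 2.15 in KO livers at 12 weeks.

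Marchf1, the ubiquitin ligase that sends class II molecules to degradation, rose by 3.46 and 2.50 in KO livers at 12 and 34 weeks and by 2.78 in KOT livers at 12 weeks. Cd83, which opposes that ligase, rose in the same comparisons, by 3.08, 3.20 and 2.34. Marchf8 fell by 1.08 in KO livers at 34 weeks. Among the ligands for T cells, Icosl rose by 3.95, 2.82 and 1.94 and Cd40 by 2.27, 1.37 and 2.58 in these comparisons. Cd80 and the inhibitory ligand Cd274 (PD-L1) rose in KO livers at both times, Cd80 by 2.57 and 2.32 and Cd274 by 3.58 and 2.47. Cd86 was called in KOT livers at 12 weeks, at 2.45.

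The list held 2 receptors of T cells that bind class II. Lag3, an inhibitory receptor that binds class II, was at 1.52 to 4.54 CPM in WT livers and at 0.242 to 0.922 CPM in KO livers at 12 weeks. It fell by 2.23 in KO livers at 12 weeks (SE 0.67, adjusted p = 0.0145, edgeR) and by 1.72 at 34 weeks (SE 0.68, adjusted p = 0.046, edgeR). In KOT livers at 12 weeks Lag3 was at 2.17 to 13.5 CPM, higher than in KO livers by 3.41 (SE 0.69, adjusted p = 0.000736, edgeR). Cd4, the receptor that binds class II on helper T cells and some macrophages, rose by 1.89 in KO livers at 34 weeks.

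The other class II chains had few reads. H2-DMb2, the neighbour of H2-DMb1, rose by 1.42 in KO and by 1.93 in KOT livers at 12 weeks. H2-Eb2 was at 0 reads in all 3 WT livers at 12 weeks and at 2 to 8 reads in the KO livers, and over all livers it did not exceed 0.734 CPM.

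**Figure D4:**
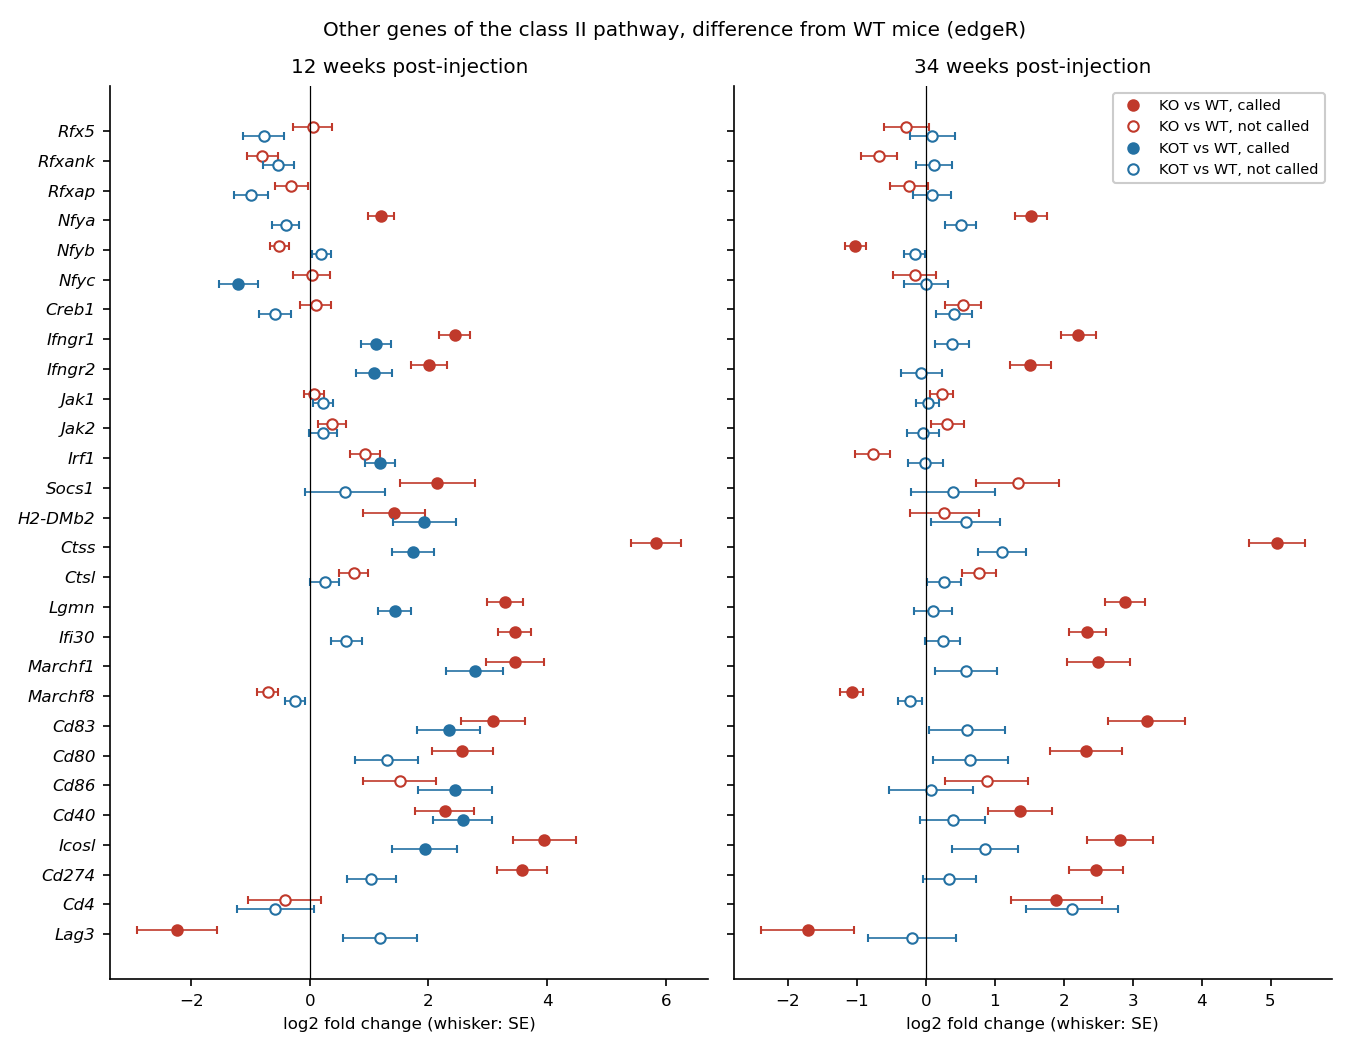
log2 fold change (x axis; whisker, SE) from WT mice of related genes of the class II pathway (y axis) at 12 weeks (left) and 34 weeks (right), for KO mice (red) and KOT mice (blue), 3 mice a group; filled points were called, and a few genes of the list, H2-Eb2 among them, are not drawn. Ctss has the largest values in KO mice, 5.84 and 5.09, Lag3 lies below 0 in KO mice at both times, and no KOT point is filled at 34 weeks.

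Genes whose pattern was most like the class II genes were sought among the 12591 tested genes that averaged 1 CPM or more. Likeness was the root mean square difference of log2 CPM over the 18 livers, each profile centred on its own mean, with smaller values closer. Against the mean of H2-Aa, H2-Ab1, H2-Eb1 and Cd74, whose own SD over the livers was 0.99, the closest genes were Treml4 at 0.49, Ear2 at 0.53, Il18bp at 0.55, Cd3g at 0.58 and Itgal at 0.59. With profiles centred within each group, which leaves only differences between mice of one group (SD 0.66), they were C1qc at 0.24, C1qa at 0.29, P2ry13 at 0.33, Cd72 at 0.34 and Cd3g at 0.35. With TPM in place of CPM, 4 of these 5 were kept for all livers and 3 of 5 within groups.

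Against Ciita (SD 0.74) the closest genes were Itgal at 0.44, Stk39 at 0.49, Gbp2 at 0.49, Snai2 at 0.50 and Dynlt1c at 0.50, and within groups (SD 0.48) Il2rb at 0.13, Arid3a at 0.21, Zfp90 at 0.26, Dpysl2 at 0.27 and Mpeg1 at 0.27. With TPM only 2 of 5 were kept in each case. The livers share their libraries across genes, so these values describe the 18 livers.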

How the data were processed

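Labels gave the group of each of the 18 livers, and the weeks follow the study's methods. The deposited estimated counts per gene come from the authors' Salmon run on GRCm39 transcripts of Ensembl release 110, gathered by gene with tximport. The TPM values and the mean transcript lengths were deposited by the authors from the same step. Labels name R 4.3.0 and DESeq2 1.40.1 for the authors' own comparisons, a table of log2 fold changes and p values that was not used here. Strandedness was not given in the sources used here. Single values of 2 listed genes are not reported here.

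The 9 members and the lists of related and marker genes were chosen with earlier results of these data known, and the genes named are these, together with the 5 genes most like each of a pair of anchors. Counts were rounded, genes with 100 reads or fewer over all livers were left out, and edgeR 4.0.16 (R 4.3.3) was fitted with TMM factors and 6 group means to test 12 comparisons, of which 3 were interactions. The test was first run on simulated counts with 200 changed genes. The permutation tests of the ratios were run in Python 3.11.15, with the Benjamini-Hochberg adjustment from scipy 1.17.1. CPM and TPM cannot tell apart a gene that changed from a change in what the rest of the liver expressed, and levels across genes were compared in TPM alone.

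Alternatives were DESeq2 1.42.0, upper-quartile factors, total counts, offsets for gene length, limma 3.58.1 on log2 TPM with 0.1 added, no filter, a fit restricted to the groups of each comparison, edgeR's filterByExpr, an adjusted p under 0.01, no threshold on the fold change, the mouse number as a block and each mouse left out in turn. A fit with length and GC trends removed, with values for 98.4% of the tested genes, was chosen after seeing the data. WT mice of the same number at 12 and 34 weeks had correlations of 0.0763, -0.24 and 0.46 between their deviations from the group means, so the numbers did not pair the mice. Positions come from GRCm39, and promoter windows from RefSeq on GRCm38.p6.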

Additional observations from a re-analysis of the deposited data

Results flagged for a closer look

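Whether the difference between 2 groups itself changed from 12 to 34 weeks was tested as an interaction in edgeR for each named gene, and these passed. All values are log2 differences (34 weeks minus 12 weeks) with an adjusted p over all tested genes. The KOT livers of 12 weeks stood apart in their TMM factors, and time and study code cannot be told apart. Of all tested genes 18.4% passed for KOT against WT and 3.28% for KOT against KO, and these totals rested on single mice. The 2675 genes for KOT against WT dropped to 1 when KOT mouse 9 of 34 weeks was left out. Among the 12-week WT mice, leaving out mouse 3 gave 3 genes and leaving out mouse 1 gave 65. The 477 for KOT against KO were 1 without KO mouse 8 of 12 weeks, KO mouse 4 of 34 weeks or KOT mouse 11 of 34 weeks, 2 without KO mouse 5 or KOT mouse 9 of 34 weeks and 9 without KO mouse 5 of 12 weeks.

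For KOT against WT, H2-Ob changed by -2.87 (adjusted p = 0.0249, edgeR), the one member of the 9 that passed. Among related genes, Marchf1 changed by -2.20 (adjusted p = 0.0331, edgeR), Cd40 by -2.19 (adjusted p = 0.0384, edgeR), Lgmn by -1.32 (adjusted p = 0.0325, edgeR) and Irf1 by -1.19 (adjusted p = 0.0337, edgeR). Cd4 changed the other way, by 2.70 (adjusted p = 0.0498, edgeR). For H2-Eb2 the fitted value was -5.71 (adjusted p = 0.0472, edgeR), which is no bound, since all 3 WT livers had 0 reads at 12 weeks. Among markers, the macrophage gene Adgre1 changed by -2.61 (adjusted p = 0.0245, edgeR), the B cell gene Cd79b by -2.50 (adjusted p = 0.031, edgeR), the leukocyte gene Ptprc by -2.17 (adjusted p = 0.0246, edgeR) and the hepatocyte gene Hnf4a by 1.85 (adjusted p = 0.0241, edgeR).

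For KOT against KO, Hnf4a changed by 1.905 (adjusted p = 0.0391, edgeR), the endothelial gene Lyve1 by -2.37 (adjusted p = 0.0474, edgeR) and the bile duct gene Krt7 by -2.81 (adjusted p = 0.04999, edgeR).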

How the results depend on the processing

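Over all alternatives, 312 counts of called members stayed within 1.5 times the value in the report and 44 did not, and 777 log2 fold changes of members kept their direction and their side of the threshold, 44 no longer passed, 15 came to pass and 9 turned direction. In no alternative, with 1 mouse out or otherwise, was a member called between KOT and WT livers at 34 weeks or in the interaction of KO against WT with time. The cause of the changes below was not tested.

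At an adjusted p under 0.01 the count between KO and WT livers at 34 weeks was 1 (edgeR). The count of 4 between KOT and WT livers at 12 weeks was 7 with DESeq2 and 2 with total counts, with limma on log2 TPM and at an adjusted p under 0.01. Between KOT and KO livers at 12 weeks the count of 3 was 6 with total counts and with limma on log2 TPM and 5 with length and GC trends removed. At 34 weeks the count of 0 between KOT and KO livers was 1, H2-DMb1, in each of these 3 settings. For KOT livers between times the count of 1 was 2 with DESeq2, upper-quartile factors, no filter and limma on log2 TPM, and 3 with length and GC trends removed. The interaction of KOT against WT with time, 1 member, was 0 in a fit of only the groups compared, with limma on log2 TPM and at an adjusted p under 0.01, and 2 with length and GC trends removed. The interaction of KOT against KO with time, 0 members, was 1 with DESeq2.

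With the mouse number as a replicate block, which could be fitted in 8 of the 12 comparisons with 3 residual degrees of freedom and whose numbers did not pair the mice, the counts were 0 between KOT and KO livers at 12 weeks, 0 between times in KOT livers and 0 for the interaction of KOT against WT with time.

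With 1 mouse left out at a time, the counts ranged from 5 to 7 for KO against WT at 12 weeks and from 1 to 3 at 34 weeks, from 2 to 7 for KOT against WT at 12 weeks, from 3 to 3 and from 0 to 1 for KOT against KO at 12 and 34 weeks (1 without KOT mouse 12), from 1 to 2 between times in KOT livers (2 without KOT mouse 11 or 12 or WT mouse 2 of 34 weeks or KO mouse 9 of 12 weeks), from 0 to 2 for the interaction of KOT against WT with time (2 without KOT mouse 12 of 34 weeks or WT mouse 2 of 12 weeks) and from 0 to 1 for that of KOT against KO (1 without KO mouse 6 of 34 weeks). The log2 fold changes between KO and WT livers at 34 weeks that did not pass ranged from -0.16 to 1.07 for H2-Aa, from -0.57 to 0.46 for H2-Ab1, from -0.11 to 1.01 for H2-Eb1 and from -0.0353 to 0.55 for Ciita. For Cd74 between KOT and WT livers at 12 weeks they ranged from -0.0162 to 0.81, and limma on log2 TPM gave -0.54. Ciita between KO and WT livers at 34 weeks was -0.30 with length and GC trends removed.

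With total counts in place of TMM scaling, the median over all tested genes went on the log2 scale from 0.0184 to 0.485 for KO against WT at 12 weeks, from -0.0267 to 0.601 at 34 weeks, from 0.0585 to -0.332 for KOT against WT at 12 weeks, from -0.1875 to -1.053 for KOT against KO at 12 weeks and from 0.0319 to -0.509 at 34 weeks. The share of calls that were higher moved from 69.1% to 87.1%, 56.6% to 81.8%, 53.1% to 24.4%, 39% to 8.93% and 40.8% to 18.5% in these comparisons, from 54.7% to 87.8% between times in KOT livers and from 6.94% to 18.2% in KO livers. The ratios within a liver do not use this scaling. H2-Oa, with few reads, had no value in a fit of only the groups compared.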
